A study of Mus musculus with 104 samples.

Results

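The neurons described here are 35 of the 104 libraries of a study of fluorescent reporters for Lewy pathology, the protein inclusions that mark neurons in Parkinson disease. They are the libraries titled experiment 13 to 35, of which 14 are present, and control 15 to 37, of which 21 are present. They were taken as a block because their title numbers run together in the records, and the labels do not call this block a batch. Each library holds RNA drawn from a single mouse substantia nigra cell into a patch pipette and labelled dopaminergic neuron. The series' design text describes the picking of neurons in the SNc (substantia nigra pars compacta) that bore inclusions of the α-Syn-6H-EGFP reporter, a fusion with a green fluorescent protein. The labels do not say whether the control neurons expressed the reporter, and they give no genotype, strain, age, treatment or animal for either group. Neurons of 1 group may therefore share an animal, each group counted as 1 sample, and no test between the groups was possible.

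Nigral dopaminergic neurons make dopamine from tyrosine by way of tyrosine hydroxylase and dopa decarboxylase, load it into vesicles and take it back up through the dopamine transporter. The ventral tier of the nigra, rich in Aldh1a1 and Sox6, is the more vulnerable in Parkinson disease, while Calb1-rich dorsal-tier and ventral tegmental neurons are relatively spared. Lewy inclusions mark surviving neurons in that disease. Their formation has been studied in relation to the endoplasmic reticulum, mitochondria, lysosomes and membrane lipids, and genes of these systems are described below.

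The libraries held 116567 to 1838251 counts over genes, with a median of 831619 in the experiment group and 577269 in the control group. Th, Ddc, Slc18a2 and Slc6a3 had counts in all 35 libraries, and Xist had none in any, while 34 had counts of Y-linked genes. No 2 libraries had identical counts, and pairs correlated between 0.287 and 0.608 on log2(CPM + 1), with CPM standing for the count of a gene scaled to a common library total. Experiment library 27 stood against its label, with 138 CPM of Th, the lowest of the block, and 10433 CPM summed over 13 astrocyte markers, the highest. Experiment library 21, the deepest, had 517 CPM of Slc6a3 and 978 CPM summed over 8 GABAergic markers, so results that lean on either library are given without it. Controls 15 to 30 and 31 to 37 are also separated by experiment libraries in the records and differed in subtype genes, and ratios against each set are given where they differ. Glial markers summed higher in the experiment group, with a median of 3748 CPM against 1540 CPM, and 7 of the 9 libraries at 3931 CPM or more were experiment libraries.

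**Figure D1:**
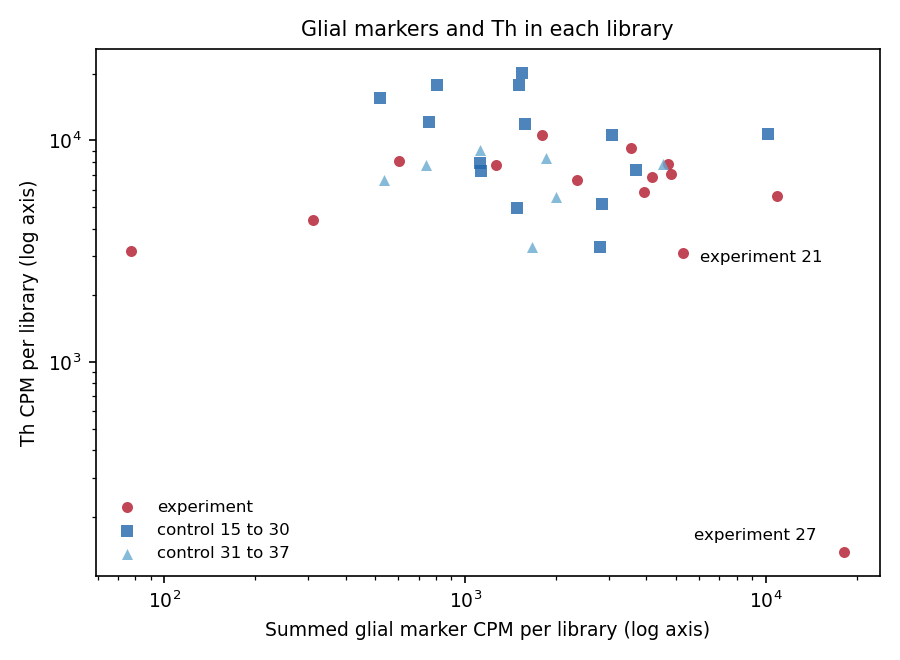
Th against the summed CPM of astrocyte, microglia and oligodendrocyte markers, both on log axes, with 1 point per library. Experiment library 27 lies alone at 138 CPM of Th, and the experiment and control points otherwise overlap in part on both axes. Some control points lie above every experiment point in Th. In glial markers experiment 13 and 30 lie under every control, and experiment 27 and 34 above every control.

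Genes were compared by the ratio of experiment over control, and a gene is called higher or lower where 3 ratios are all at least 1.5-fold apart in 1 direction. The 3 are the ratio of pooled CPM, the ratio of mean library CPM, and the pooled ratio after each group's top library for that gene is left out. Among 8128 expressed genes, 678 (8.34%) were called higher and 1301 (16%) lower, and the median log2 ratio of all of them was -0.11. At 2-fold the shares were 3.41% and 7.16%, and by all 3 ratios at any size 31.4% and 47.3%. Without experiment library 27 the counts were 741 (9.12%) and 1237 (15.2%), without library 21 they were 718 (8.83%) and 1337 (16.4%), and without both they were 781 (9.61%) and 1288 (15.8%). Against controls 15 to 30 the shares were 11.5% higher and 16% lower, and against controls 31 to 37 they were 15.4% and 16.4%. With the 9 glial-rich libraries, those at 3931 CPM or more of glial markers, left out they were 9.60% and 22.9%. These shares are the background for every list below, because single neurons differ widely and calls arise among any genes. Intervals in brackets are 95% binomial intervals of pooled ratios and cover counting error only, not the spread between neurons. The pair share is the percent of the 294 experiment and control library pairs in which the experiment library was higher, with a tie counted as 0.5 of a pair.

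Of the 11 expressed genes of dopamine synthesis, transport and breakdown, 2 were called lower, Th and Gch1, and 0 were called higher, with a median log2 ratio of -0.41. That is 18.2% called lower, near the 16% of all genes. Without experiment 27 it was 9.09%, beside 15.2%, with a median of -0.24. Th, the rate-limiting enzyme of dopamine synthesis, ranged from 138 to 10616 CPM around a median of 6727 CPM in the experiment group and from 3300 to 20201 CPM around 7874 CPM in the control group. The groups overlapped, with 11 of 14 experiment libraries under the control median and 7 control libraries, all of them controls 15 to 30, above every experiment library. The pooled ratio was 0.559 [0.553, 0.564], and the call was lost without any 1 of experiment 13, 21 or 27 or control 22, 25 or 26, with ratios of 0.501 to 0.629 over all libraries left out in turn. Against controls 15 to 30 the ratio was 0.505 and against controls 31 to 37 it was 0.815.

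The other genes that define dopamine handling were lower by less. Slc6a3, the dopamine transporter, had a median of 3792 CPM against 4562 CPM and a pooled ratio of 0.704. Slc18a2, the vesicular monoamine transporter, had a ratio of 0.698, and Ddc, dopa decarboxylase, 0.751. None of these met the call, and for Slc6a3 the mean library CPM gave 0.915. Gch1, which makes the tetrahydrobiopterin cofactor of tyrosine hydroxylase, was the more separated gene. It ranged from 0 to 347 CPM around 129 CPM in the experiment group and from 0 to 1417 CPM around 329 CPM in the control group. A single experiment library exceeded the control median, the pair share was 20.4%, and the ratio was 0.265, close to the same against either control set (0.262 and 0.277).

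Among 13 expressed trophic receptors and identity factors, 3 (23.1%) were called lower, beside 16% of all genes, and 0 higher. The median log2 ratio was -0.72. The count called lower was 3 against controls 15 to 30, with a median of -0.54, and 8 against controls 31 to 37, with -1.09. Gfra1, the co-receptor through which GDNF acts, ranged from 0 to 197 CPM around 0.817 CPM in the experiment group and from 0 to 724 CPM around 266 CPM in the control group. All 14 experiment libraries lay under the control median, 7 of 14 had any count against 19 of 21 controls, and the pooled ratio was 0.068 [0.059, 0.078]. After thinning to 150000 counts per library, which leaves out experiment library 35, 5 of 13 and 18 of 21 libraries had a count. Ret, the kinase that signals with Gfra1, ranged from 0 to 1397 CPM around 757 CPM against 372 to 1755 CPM around 1106 CPM. Its ratio was 0.517, but the mean library CPM gave 0.705 and it was not called.

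Dlk1, an imprinted membrane protein of the Notch ligand family that marks nigral neurons, had a median of 366 CPM against 832 CPM and a ratio of 0.275, with 12 of 14 experiment libraries under the control median. Lmx1b, a homeobox factor of midbrain patterning, had a ratio of 0.261, which was 0.14 without experiment 33, and its call was lost without control 26, at 0.435, or control 32. Nr4a2, Pitx3, En1 and Foxa1, other factors of this lineage, had ratios of 0.671, 0.609, 0.884 and 1.15 and were not called.

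**Figure D2:**
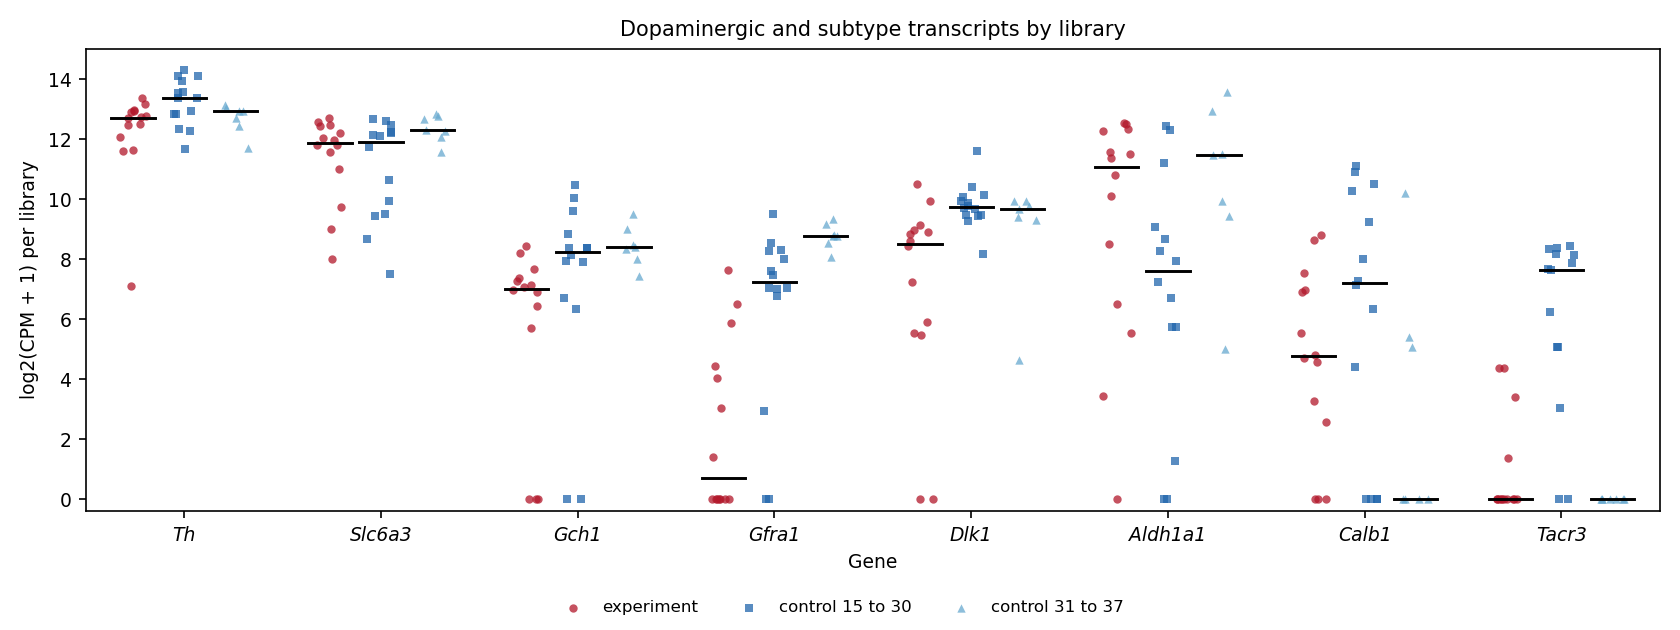
Levels of 8 dopaminergic and subtype genes on a log2(CPM + 1) scale, with 1 point per library, for the experiment group and both control sets; black bars are medians. Gfra1 and Gch1 are lower in the experiment points than in both control sets, while Aldh1a1, Calb1 and Tacr3 also differ between controls 15 to 30 and 31 to 37.

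The subtype genes placed the 2 control sets apart from each other, and the experiment group between or beyond them. Aldh1a1, which converts the dopamine aldehyde and marks the ventral tier, had a median of 2200 CPM in the experiment group, 198 CPM in controls 15 to 30 and 2859 CPM in controls 31 to 37. Its ratio was 1.29 over all controls, 2.18 against the first set and 0.581 against the second, so its direction depends on the control set. Of 10 expressed ventral-tier genes, 3 were called higher and 1 lower, with 6 and 1 against controls 15 to 30 and 3 and 2 against controls 31 to 37. Of all genes, 8.34% were called higher, or 11.5% and 15.4% against the 2 sets. Lmo3, a LIM-domain factor, was higher against both sets (2.80 and 2.02), ranging from 37.6 to 1033 CPM around 417 CPM against 0 to 744 CPM around 103 CPM. Anxa1, annexin A1 of the most ventral neurons, was called higher at 6.76, with counts in 7 of 14 and 6 of 21 libraries. The Anxa1 ratio was 4.35 without experiment 26 and 28.3 without control 23. Kcnj6, the GIRK2 channel often used to outline the ventral tier, was called lower at 0.328, with 13 of 14 experiment libraries under the control median.

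Of 6 expressed dorsal-tier and ventral tegmental genes, 4 were called lower and 0 higher, but against controls 31 to 37 the counts were 0 and 4. Over all genes 16% were called lower, and 15.4% higher against controls 31 to 37. Calb1, the calcium buffer calbindin, had a ratio of 0.186, or 0.12 without experiment 23, and was lower against both sets (0.159 and 0.367). Tacr3, the neurokinin 3 receptor, was at 0 in all 7 controls from 31 to 37 and had a median of 200.2 CPM in controls 15 to 30. Its ratio of 0.0401, or 0.0166 without experiment 21, therefore comes from controls 15 to 30, and against controls 31 to 37 Tacr3 was at least 4.96-fold higher. The neuropeptide gene Cck (0.211) and the calretinin gene Calb2 (0.611) turned in the same way, with ratios of 3.70 and 112 against controls 31 to 37. The Calb2 call was also lost without experiment 21 or any 1 of 5 controls, and its ratio ranged from 0.429 to 0.836. How far a different mix of subtypes in the groups contributes to other ratios was not tested.

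Neurons make cholesterol by a pathway whose enzymes are transcribed under SREBP2, encoded by Srebf2, when sterol in the endoplasmic reticulum is low. INSIG1 holds the SREBP complex in the endoplasmic reticulum and its gene is itself a target. Of 20 expressed genes of cholesterol synthesis and transport, 9 were called lower and 1 higher, against 16% and 8.34% of all genes, with a median log2 ratio of -0.61. With the 9 glial-rich libraries left out, 13 of 20 were called lower, beside 22.9% of all genes in that setting, and without libraries 21 and 27, 12 of 20. Against controls 15 to 30 the count was 8 and against controls 31 to 37 it was 11. In the other 3 record blocks, with 24 experiment and 45 control libraries, the list's median was -0.51.

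Insig1 had a pair share of 5.44%. It ranged from 24.6 to 227 CPM around 116 CPM in the experiment group and from 94.4 to 650 CPM around 390 CPM in the control group. All 14 experiment libraries lay under the control median and 4 lay under every control. The ratio was 0.327 [0.307, 0.347] and was 0.337 and 0.300 against the 2 control sets. In the other blocks it was 0.758.

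Several enzymes of the pathway were among the genes called lower. Hmgcs1, the synthase that forms HMG-CoA, ranged from 98.5 to 532 CPM around 200.3 CPM against 61 to 826 CPM around 470 CPM, a ratio of 0.411. Idi1, the isomerase of the isoprenoid step, had a ratio of 0.289, with 0 experiment libraries above the control median. Fdft1, squalene synthase, ranged from 0 to 477 CPM around 126 CPM against 2.35 to 2746 CPM around 561 CPM, and 0 of 14 experiment libraries exceeded the control median. Its ratio was 0.278, with the opposite-strand neighbour Ctsb overlapping its locus, and for the strand setting nothing was given in the sources used here. Other genes described in this text also overlap an opposite-strand neighbour, among them Cyp51, Pdia6, Syvn1, Psph, Ppt1, Chrnb2 and Hcn3.

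Sqle, squalene epoxidase, had a ratio of 0.276, with medians of 52.6 and 260 CPM and 13 of 14 experiment libraries under the control median. Msmo1, which demethylates the sterol ring, had a ratio of 0.363, and 4 experiment libraries lay under every control. Cyp51 (0.456), an enzyme of the later steps, was also called lower. Srebf2 itself was not called, at 0.627 pooled and 0.712 by mean library CPM. Tecr, which reduces very long fatty acyl chains and was named by its pair share of 10.5%, ranged from 512 to 1432 CPM around 845 CPM against 779 to 4012 CPM around 1484 CPM. It had no experiment library above the control median and a ratio of 0.490.

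On the side of transport, Lrp8, a receptor for apolipoprotein E, was called lower at 0.275, from low counts. Apoe, the carrier that astrocytes supply, was the single member called higher, at 11, and 69.2% of its experiment counts came from library 27. Without that library the ratio was 3.81, and without control 15 it was 18.4. Astrocyte markers, described below, were higher in the same library, and the part of glial RNA in it was not tested.

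A sterol promoter sequence is shown next, and whether SREBP2 acted on these genes here was not tested. The core of the sterol response element, TCACNCCAC, was searched on both strands in the RefSeq promoter windows, after the values had been seen. It occurred in 1 of the 14 sterol genes with a window, Hmgcs1, and in 1.44% of all 27025 promoters. Among all expressed genes with a window, 14 of 91 holders and 974 of 6149 others were called lower. Their median log2 ratios were -0.08 and -0.12. A window of 100 bases upstream of Hmgcs1, at chr13:119690169-119690268 of GRCm38.p6 on the plus strand, carries it in capitals.
Hmgcs1: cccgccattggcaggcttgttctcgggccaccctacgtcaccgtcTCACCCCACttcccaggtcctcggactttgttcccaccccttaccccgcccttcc

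**Figure D3:**
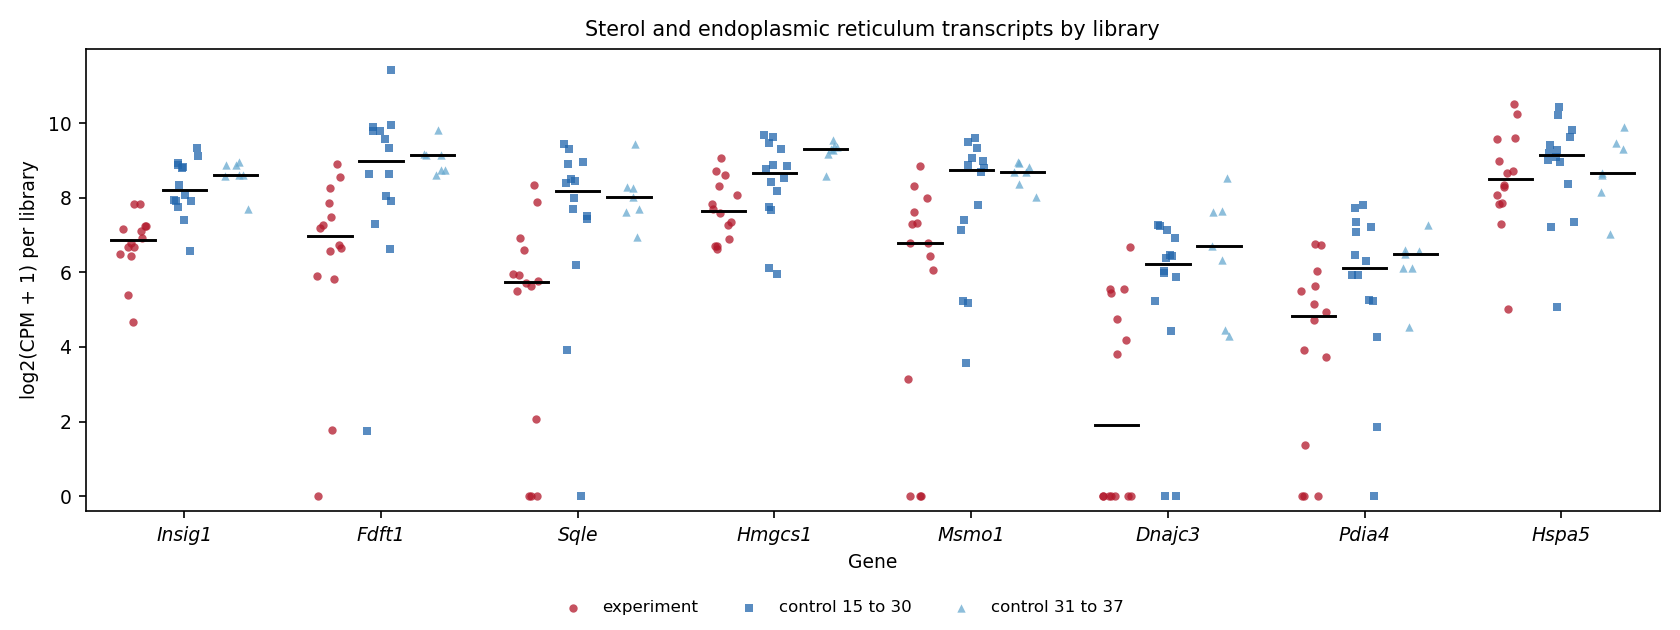
Levels of 5 sterol genes and 3 endoplasmic reticulum genes on a log2(CPM + 1) scale, with 1 point per library; black bars are medians. The experiment medians of Insig1, Fdft1, Sqle, Hmgcs1, Msmo1 and Dnajc3 lie under those of both control sets, and Hspa5 overlaps throughout.

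The endoplasmic reticulum folds secreted and membrane proteins with chaperones such as BiP, and the unfolded protein response raises these chaperones through ATF6 and XBP1 when folding falls behind. Of 22 expressed genes of this list, 10 (45.5%) were called lower and 1 (4.55%) higher, beside 16% and 8.34% of all genes. By all 3 ratios at any size 20 were lower, beside 47.3% of all expressed genes. The list's median log2 ratio was -0.58 in this block and -0.07 in the other 3 blocks. The count of called-lower members was 10 without experiment 27, 9 without libraries 21 and 27, and 11 with the 9 glial-rich libraries left out, where 22.9% of all genes were. It was 9 against controls 15 to 30 and 8 against controls 31 to 37.

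Dnajc3, a co-chaperone of BiP that also inhibits the kinase PERK, ranged from 0 to 102 CPM around 6.48 CPM in the experiment group and from 0 to 366 CPM around 82.4 CPM in the control group. It was detected in 7 of the 14 experiment libraries and 19 of the 21 controls, and after thinning in 6 of 13 and 19 of 21. The ratio was 0.259 [0.224, 0.297] and the pair share 16%. Syvn1, the ubiquitin ligase that degrades misfolded proteins, had a ratio of 0.270, and its partner Sel1l 0.509. Their medians were 28.2 against 67.3 CPM and 66 against 137 CPM.

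The protein disulfide isomerases Pdia4 (0.422), Pdia6 (0.575) and P4hb (0.521) were each called lower, as was the nucleotide exchange factor Hyou1 (0.502). Pdia4 ranged from 0 to 107 CPM around 27.5 CPM against 0 to 224 CPM around 78.5 CPM, so the groups overlapped while 12 of 14 experiment libraries lay under the control median. Creld2 (0.244, or 0.0965 without experiment 23), Sdf2l1 (0.571) and Sec61b (0.618) were also called lower but turned to 1.37, 1.77 and 1.5 against controls 31 to 37. The Sdf2l1 call was lost without control 20 and that of Sec61b without any 1 of experiment 13 or 30 or control 15 or 21.

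The abundant chaperones moved less. Hspa5, which encodes BiP, ranged from 31.2 to 1447 CPM around 365 CPM against 32.5 to 1390 CPM around 547 CPM, with a ratio of 0.731 and no call. Hsp90b1 (0.718), Calr (0.638) and Canx (0.774) were not called either, nor was Xbp1 (0.852). Atf6, the sensor that becomes a transcription factor on cleavage, was called higher at 2.47, with counts in 9 of 14 and 10 of 21 libraries. That call was lost without any 1 of experiment 23, 26, 29 or 34, and the ratio was 1.42 without experiment 23.

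Some promoters of this list hold an element that the ratios did not use. The endoplasmic reticulum stress element, CCAAT followed by any 9 bases and then CCACG, was searched on both strands after the values had been seen. It occurred in 8 of the 20 list genes with a RefSeq promoter window, in 0.192% of 6240 expressed genes and in 0.137% of all windows. The holders were Hspa5, Hsp90b1, Calr, Canx, Pdia6, Dnajc3, Creld2 and Syvn1, of which 4 were called lower, beside 5 of the 11 expressed members without it, and the median log2 ratios were -0.72 and -0.52. Among all expressed genes with a window, 5 of 12 holders, these 8 included, and 983 of 6228 others were called lower. The sequences of 1 uncalled and 4 called holders follow, as 100-base windows of GRCm38.p6 upstream of the RefSeq start, in the gene's direction, with the element in capitals. Creld2 holds it on the opposite strand, where it reads CGTGG first and ATTGG last.
Hspa5: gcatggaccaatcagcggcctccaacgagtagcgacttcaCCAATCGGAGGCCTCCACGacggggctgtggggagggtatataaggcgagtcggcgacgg
Dnajc3: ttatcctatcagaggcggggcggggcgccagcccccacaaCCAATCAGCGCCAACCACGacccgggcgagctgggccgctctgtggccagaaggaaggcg
Pdia6: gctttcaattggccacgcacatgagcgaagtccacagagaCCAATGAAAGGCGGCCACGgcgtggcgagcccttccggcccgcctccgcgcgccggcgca
Syvn1: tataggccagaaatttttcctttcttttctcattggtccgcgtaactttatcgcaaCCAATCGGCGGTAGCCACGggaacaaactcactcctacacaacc
Creld2: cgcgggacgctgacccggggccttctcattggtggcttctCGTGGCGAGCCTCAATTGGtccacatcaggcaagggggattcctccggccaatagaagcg

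The windows lie at chr2:34771985-34772084 for Hspa5, chr14:118937787-118937886 for Dnajc3, chr12:17266451-17266550 for Pdia6, chr19:6046476-6046575 for Syvn1 and chr15:88819480-88819579 for Creld2, all for genes on the plus strand. The element begins 65 bases before the RefSeq start in Hspa5 and 105 bases before it in Dnajc3. A match is a run of letters and not evidence of binding in these neurons.

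The integrated stress response raises ATF4 targets, among them the serine synthesis enzymes, when translation initiation is restrained. Of 15 expressed members, 7 (46.7%) were called higher, beside 8.34% of all genes, and 0 lower, with a median log2 ratio of 0.47. Without libraries 21 and 27, 7 were also called higher. The count was 8 against controls 15 to 30 and 5 against controls 31 to 37, where 11.5% and 15.4% of all genes were. Psat1, an aminotransferase of serine synthesis, ranged from 0 to 477 CPM around 54.1 CPM in the experiment group and from 0 to 72.6 CPM in the control group, whose median was 0. Of the 14 experiment libraries, 10 had a count and 5 exceeded every control, against 9 of 21 control libraries with a count. The ratio was 9.06 [7.46, 11.1], or 19.2 without control 20, and 6.46 in the other blocks.

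Phgdh, the first enzyme of the pathway, had a ratio of 3.48, and astrocytes express this gene too. In the libraries at or under the median ERCC share, 5 experiment and 13 control, Phgdh turned to a log2 ratio of -0.85. Psph, the last enzyme, had a ratio of 2.63, which ranged from 1.78 to 3.37 with single libraries left out and lost its call without experiment 25, 26 or 31. Atf3, a stress-induced factor of the ATF family, had a ratio of 4.99, or 2.91 without experiment 20 and 15.6 without control 16, from counts in 9 of 14 and 3 of 21 libraries. Ddit3, which encodes CHOP, had medians of 112 and 58.3 CPM and a ratio of 2.06, with its call lost without experiment 25. Ppp1r15a (1.82) and Cebpg (1.52) were called but lost the call without any 1 of several libraries, with lowest ratios of 1.60 and 1.08.

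Atf4 itself was not called, with medians of 101 and 109 CPM and a ratio of 1.04. Asns, another ATF4 target, had a ratio of 1.18. In the other blocks these 2 ratios were 1.69 and 2.01.

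Immediate early genes are transcribed within minutes of activity, injury or tissue handling, and slice preparation itself can raise them. Of 17 expressed members, 8 (47.1%) were called higher, beside 8.34% of all genes, and 2 lower, with a median log2 ratio of 0.33. The count of called-higher members was 6 without experiment 27, with a median of 0.03, and 1 with the 9 glial-rich libraries left out. In that setting 6 of the 17 were called lower, beside 22.9% of all genes. Against controls 31 to 37, 12 were called higher, and against controls 15 to 30, 7, beside 15.4% and 11.5% of all genes.

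Jund, a stable member of the AP-1 family, kept its call with any 1 library left out. It ranged from 77.2 to 356 CPM around 201 CPM in the experiment group and from 4.79 to 387 CPM around 54.4 CPM in the control group. All 14 experiment libraries exceeded the control median, although the highest library was a control, and the pair share was 86.4%. The ratio was 2.58 [2.40, 2.78], and 2.51 without experiment 27, while in the other blocks it was 0.988. Fos ranged from 0 to 7084 CPM around 1071 CPM against 88.0 to 1168 CPM around 385 CPM, and 6 experiment libraries exceeded every control. Its ratio was 3.57, or 2.37 without experiment 27, which held 41.2% of the counts.

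Jun (3.25), Junb (2.92, or 1.91 without experiment 27) and Fosb (2.63) were called higher as well. Egr1 (3.29), Ier2 (3.61) and Gadd45g (7.26) were 1.67, 1.14 and 3.82 without that library, and Egr1 and Ier2 lost the call. Gadd45g was 11.1 without control 24. The 2 members called lower were Klf4 (0.271, or 0.181 without experiment 25) and Homer1 (0.590, or 0.298 without experiment 27).

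The mitochondrial genome encodes core subunits of respiratory complexes I, III, IV and V. Of its 13 listed genes, 8 passed the expression filter, none of them of complex V, and these 8 were higher in the experiment group. Of 8 expressed genes, 6 were called higher and 0 lower, with a median log2 ratio of 0.70, or 0.67 without experiment 27 and 0.93 without libraries 21 and 27. The count called higher was 3 against controls 15 to 30, with a median of 0.61, and 8 against controls 31 to 37, with 1.09. Of all genes, 11.5% and 15.4% were called higher against these 2 sets. In the other blocks the median was 0.62. The mitochondrial share of counts had a median of 4.33% in the experiment group and 2.40% in the control group. A higher mitochondrial share can also follow leakage of cytoplasmic RNA from a damaged cell, and RNA integrity was not measured here.

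mt-Co1, a core subunit of cytochrome oxidase, ranged from 1037 to 11605 CPM around 5851 CPM against 807 to 6325 CPM around 2751 CPM, and 6 experiment libraries exceeded every control. Its ratio was 1.90 [1.88, 1.93]. mt-Nd5, of complex I, had medians of 3351 and 1234 CPM, 13 of 14 experiment libraries above the control median and a ratio of 1.68. mt-Nd1 (1.65), mt-Nd4 (1.59) and mt-Nd6 (1.59) were called, but the first lost its call without experiment 25 or 26, the next without experiment 27 and the last without experiment 23. mt-Nd3, at much lower levels, had a ratio of 2.07, and mt-Nd2 (1.46) and mt-Cytb (1.28) were not called.

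The values of nuclear genes of respiration and translation depended on experiment 21 and on the control set. The 37 nuclear-encoded complex I genes held 0 called higher and 1 lower, with a median log2 ratio of 0.26 that was 0.06 by mean library CPM and 0.00 without experiment 21. Ribosomal protein genes, 78 in number, held 3 called higher and 0 lower, with 2 higher against controls 15 to 30 and 31 against controls 31 to 37, where 15.4% of all genes were. Their median was 0.70 pooled, 0.13 by mean library CPM and 0.16 without experiment 21. Proteasome subunits, 36 in number, had 0 calls in either direction and a median of 0.11.

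**Figure D4:**
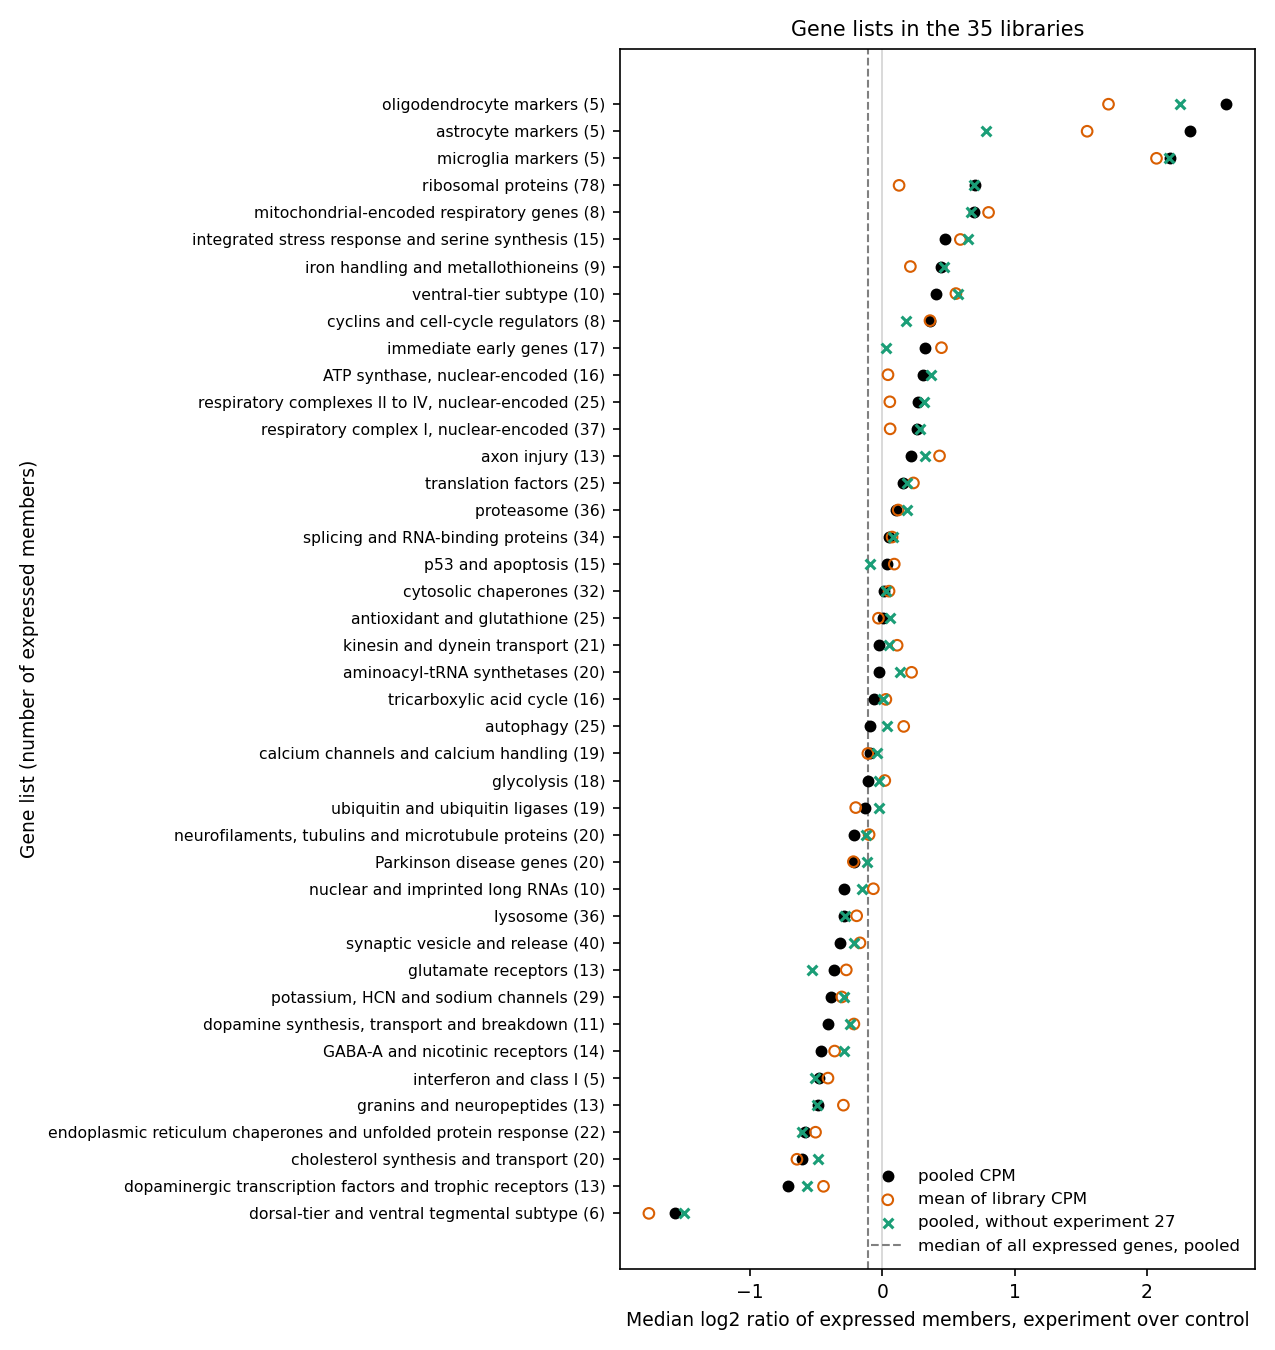
Median log2 ratio of the expressed members of each list with at least 5, by pooled CPM, by mean library CPM and by pooled CPM without experiment library 27, with the dashed line at the median of all expressed genes, -0.11. The dorsal-tier, sterol and endoplasmic reticulum lists lie to the left by all 3 measures, while the ribosomal list and the astrocyte markers shift between measures.

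Pacemaking in nigral neurons rests on sodium leak, HCN and potassium channels together with calcium entry, and transcripts of several of these channels were lower. Of 29 expressed potassium, HCN and sodium channel genes, 8 were called lower and 2 higher, and of 19 genes of calcium channels and calcium handling, 5 were called lower and 0 higher. The shares called lower were 27.6% and 26.3%, beside 16% of all genes. Nalcn, the sodium leak channel that depolarises these neurons, had medians of 29.8 and 75.3 CPM and a ratio of 0.387. Scn8a (0.336) and Scn1a (0.451), pores of voltage-gated sodium channels, were called lower. Hcn3 (0.327), of the hyperpolarisation-activated family, and Kcnt1 (0.356), a sodium-activated potassium channel, were lower too. None of these 5 calls was lost by leaving out any 1 library. Kcnn2, a potassium channel gene of the same list, was called higher at 4.57, or 8.09 without control 27. Without experiment 30 its ratio was 2.24 and the call was lost. The 29 genes had a median log2 ratio of -0.39 pooled, beside -0.11 for all genes. By mean log2(CPM + 1) these medians were -0.06 and -0.05.

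Abcc8, the SUR1 subunit of ATP-sensitive potassium channels, had counts in 3 of 14 experiment and 11 of 21 control libraries. Its ratio was 0.113, and 0.012 without experiment 31, which held 90.0% of the experiment counts. The 19 calcium genes had a median log2 ratio of -0.09, beside -0.11 for all genes, with 10 lower and 5 higher by all 3 ratios at any size. Cacna1a, the P/Q-type pore, had a ratio of 0.263 and Cacna1g, a T-type pore, 0.246, or 0.159 without experiment 25. The auxiliary subunit Cacna2d3 ranged from 0 to 83.8 CPM around 5.97 CPM against 0 to 258 CPM around 68.3 CPM, with 13 of 14 experiment libraries under the control median and a ratio of 0.176. Atp2a2, the pump that returns calcium to the endoplasmic reticulum, had a ratio of 0.553 and lost its call without control 26, at 0.671. Cacna1d, the last of the 5 called lower, had a ratio of 0.521. It lost its call without any 1 of many libraries, with ratios of 0.271 to 0.633.

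Of 13 expressed glutamate receptor genes, 3 (23.1%) were called lower, beside 16% of all genes, and 0 higher. The AMPA subunit Gria4 had a ratio of 0.371 and medians of 19.4 and 58.9 CPM. The kainate subunit Grik3 had a ratio of 0.345, or 0.188 without experiment 29, and the NMDA subunit Grin2a 0.197, or 0.0563 without experiment 27. Among 14 GABA-A and nicotinic subunits, 3 (21.4%) were called lower and 1 (7.14%) higher, beside 16% and 8.34% of all genes. The count called lower was 1 without experiment 21 and 2 without experiment 27. Against controls 31 to 37 it was 3, with 4 called higher, beside 16.4% and 15.4% of all genes. Chrnb2, the β2 nicotinic subunit, was called lower at 0.238. Of 40 genes of synaptic vesicles and release, 1 was called in each direction, under both background shares. By all 3 ratios at any size 25 of the 40 were lower, beside 47.3% of all genes, and the median log2 ratio was -0.32.

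Sncb and Sncg had ratios of 1.09 and 0.891 and were not called. Of 20 expressed Parkinson disease genes, 5 were called lower and 0 higher, against 16% lower over all genes.

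Atp13a2, a lysosomal polyamine transporter mutated in juvenile parkinsonism, ranged from 0 to 269 CPM around 71.4 CPM against 0 to 618 CPM around 244 CPM. A single experiment library exceeded the control median, and the ratio was 0.251 [0.231, 0.272]. Tmem175, a lysosomal potassium and proton channel, had a ratio of 0.378, and Vps13c, a lipid transfer protein at membrane contacts, 0.317. Gch1, described above, also belongs to this list.

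Of 36 lysosome genes, 3 were called lower and 1 higher, under both background shares, but 8 were called lower against controls 31 to 37, where 16.4% of all genes were. Ppt1, a thioesterase mutated in neuronal ceroid lipofuscinosis, had medians of 71.8 and 164 CPM, a pair share of 18.7% and a ratio of 0.423. Gusb, β-glucuronidase, had a ratio of 0.275, or 0.141 without experiment 21. Cd63, a membrane protein of late endosomes, was called higher at 2.13, or 4.04 without control 15, and turned to a log2 ratio of -0.26 with the 9 glial-rich libraries left out. Of 25 autophagy genes, 3 were called higher and 2 lower. Pik3c3, the lipid kinase that starts the autophagosome, had medians of 75.1 and 0 CPM, counts in 13 of 14 and 10 of 21 libraries and a ratio of 2.80. Optn, a receptor of selective autophagy, had a ratio of 0.438.

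The cytoskeleton list held 4 genes called higher and 1 lower among 20, beside 8.34% and 16% of all genes. Map1a, a microtubule protein of mature dendrites, ranged from 35.5 to 348 CPM around 199.5 CPM against 1.29 to 318 CPM around 119 CPM, with 11 of 14 experiment libraries above the control median and a ratio of 1.97. Nefl and Nefm, neurofilament genes whose annotated spans overlap on opposite strands, had ratios of 3.70 and 4.79. Without experiment 21 these were 2.04 and 1.64, and the Nefm call was lost. Stmn1, a tubulin-destabilising protein, was called lower at 0.593, with 13 of 14 experiment libraries under the control median. Among 34 splicing and RNA-binding genes, 3 (8.82%) were called higher and 2 (5.88%) lower, beside the same background shares.

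Rbfox1, a neuronal splicing factor, ranged from 0 to 406 CPM around 60.9 CPM against 0 to 130 CPM around 7.85 CPM, with 12 of 14 experiment libraries above the control median and a ratio of 7.10 [5.94, 8.55]. Nova1, another neuronal splicing factor, had a ratio of 2.38. Elavl4, the HuD protein that stabilises neuronal transcripts, ranged from 5.08 to 398 CPM around 226 CPM against 43.6 to 920 CPM around 442 CPM, and 0 of 14 experiment libraries exceeded the control median. Its ratio was 0.487 here and 0.958 in the other blocks. Of 15 expressed genes of p53 and apoptosis, 2 were called higher and 3 lower, beside 8.34% and 16% of all genes. Their median log2 ratio was 0.04, or -0.09 without experiment 27, where 2 were called higher and 4 lower. Among them Bax, an effector of apoptosis, was called higher at 2.15, with medians of 50.5 and 19.5 CPM. For Bax, 12 of 14 experiment libraries lay above the control median.

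Nuclear genes of respiratory complexes II to IV (25), ATP synthase (16) and the tricarboxylic acid cycle (16) had 0 calls in either direction, as had kinesin and dynein genes (21). Glycolysis had 1 of 18 called in each direction, cytosolic chaperones 1 of 32 higher and 2 lower, and antioxidant and glutathione genes 1 of 25 higher and 2 lower. Translation factors had 3 of 25 called higher and 0 lower, and aminoacyl-tRNA synthetases, some of which are ATF4 targets, 2 of 20 higher and 1 lower. Both lists had a larger share called higher than the 8.34% of all genes, from these few calls. The median log2 ratio of the synthetases was -0.03 in this block and 0.50 in the other 3. Of 13 expressed genes linked to axon injury, 4 (30.8%) were called higher, beside that 8.34%, and 1 lower. Atf3 and Jun are shared with the lists above. Interferon and class I genes, which mark inflammatory signalling, had 5 of 20 members expressed, of which 0 were called higher and 1 lower.

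Markers of several other cell types were higher in the experiment group, and they bear on any gene that those cells also express. All 5 expressed astrocyte markers of 13 were called higher, with a median log2 ratio of 2.33, and 3 were without experiment 27, with 0.79. Gja1, the main astrocyte gap junction protein, had a ratio of 18.4, of which 1.72 was left without that library, and its experiment median was 1.76 CPM. Of 5 expressed microglia markers among 11, 4 were called higher, and of 5 expressed oligodendrocyte markers among 12, 3 were. C1qc (6.35) was 2.22 without experiment 29 and 17.3 without control 15.

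GABAergic markers had 3 expressed members of 8, of which Gad1 (4.49, or 7.80 without control 15) and Pvalb (7.44) were called higher and Gad2 (1.12) was not. Without experiment 21 the Pvalb ratio was 2.15 and its call was lost. Other lists did not rise. Of 5 oligodendrocyte precursor markers 1 was expressed and called lower, a call lost without experiment 27. Of 5 glutamatergic markers 1 was expressed, and it was not called, or called lower without experiment 21. No member of the endothelial and mural, blood, ependymal or cholinergic and serotonergic lists passed the expression filter. The metallothioneins Mt1 (4.42) and Mt2 (6.21), abundant in astrocytes, were 1.84 and 1.46 without experiment 27 and lost their calls. The part of glial or GABAergic RNA in other results was not tested beyond the values without these libraries given beside them.

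The genes with the largest calls were mostly ones that single neurons either held or lacked. Ccnd2, the cyclin D2 gene at chr6:127125162-127152193 of GRCm38 on the minus strand, had counts in 11 of 14 experiment libraries and 1 of 21 controls, and after thinning in 8 of 13 and 1 of 21. It ranged from 0 to 482 CPM around 31.8 CPM in the experiment group, and its highest control was 3.07 CPM. From 823 counts against 1, the ratio was 881 with a counting interval from 158 to 34844. In the other blocks Ccnd2 had a ratio of 1.07, so this difference was not seen there. An unnamed transcript, 9330179D12Rik, overlaps the gene on the opposite strand.

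Mro and Epas1 had counts in 7 experiment libraries each and in no control. Both passed the expression filter through the experiment group alone. With 3 counts as the limit over the control group, they were at least 99.6-fold and 86.7-fold higher, and Epas1 at least 35.9-fold without experiment 27. Epas1 encodes the hypoxia-inducible factor HIF-2α. Arl13b, a small GTPase of primary cilia, had counts in 9 of 14 and 3 of 21 libraries and a ratio of 61. Without control 29 or 33 it was 98.0 or 96.7, each from 3 control counts, with counting intervals of 33.2 to 478 and 32.8 to 472. All 9 of those experiment libraries exceeded every control. Cd24a, a surface glycoprotein, had counts in 10 of 14 and 4 of 21 libraries and a ratio of 13.2, or 44.9 without control 16.

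Several of the other leading higher genes are known from astrocytes, among them Slc4a4, a bicarbonate transporter, Mlc1, a membrane protein of astrocyte endfeet, and Acsbg1, an acyl-CoA synthetase. Their ratios of 27.8, 18.7 and 16.5 were 5.41, 8.46 and 9.15 without experiment 27. Leaving out control 37 gave 119 for Slc4a4 and 37.2 for Mlc1, and leaving out control 16 gave 26.1 for Acsbg1. The chemokine gene Cxcl14 (37.8) was 19.3 without experiment 27 and 211 without control 37, the latter from 2 control counts with a counting interval of 58.1 to 1749. Olfml2b (34.4, or 109 without control 26), Fam81a (14.9, or 37.3 without control 24) and the LIM-domain gene Lmcd1 (14.6) complete the 12.

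Genes ranked by pair share were picked for a shift over many library pairs, so a more even spread over neurons follows from that rule. Pcdh17, a protocadherin of synaptic adhesion, ranged from 7.39 to 707 CPM around 225 CPM in the experiment group and from 0 to 301 CPM around 7.04 CPM in the control group. All 14 experiment libraries exceeded the control median, 4 exceeded every control, and the ratio was 5.17 [4.68, 5.72]. Gpd2, the mitochondrial glycerol-3-phosphate dehydrogenase, ranged from 6.13 to 401 CPM around 109 CPM against 0 to 199.9 CPM around 33.8 CPM, with a ratio of 3.48 and 13 of 14 above the control median. Foxp4, a forkhead factor, had medians of 139 and 44 CPM, 14 of 14 above the control median and a ratio of 2.57. Ing2, a chromatin reader, had a ratio of 6.08, with 6 experiment libraries above every control. Arpp21, a phosphoprotein of dopamine-responsive neurons, had a ratio of 3.29 that was 20.2 without control 25, and its call was lost without experiment 27, at 2.17, or experiment 34. In the other blocks Pcdh17, Gpd2, Foxp4 and Ing2 had ratios of 0.947, 1.19, 0.964 and 1.13.

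**Figure D5:**
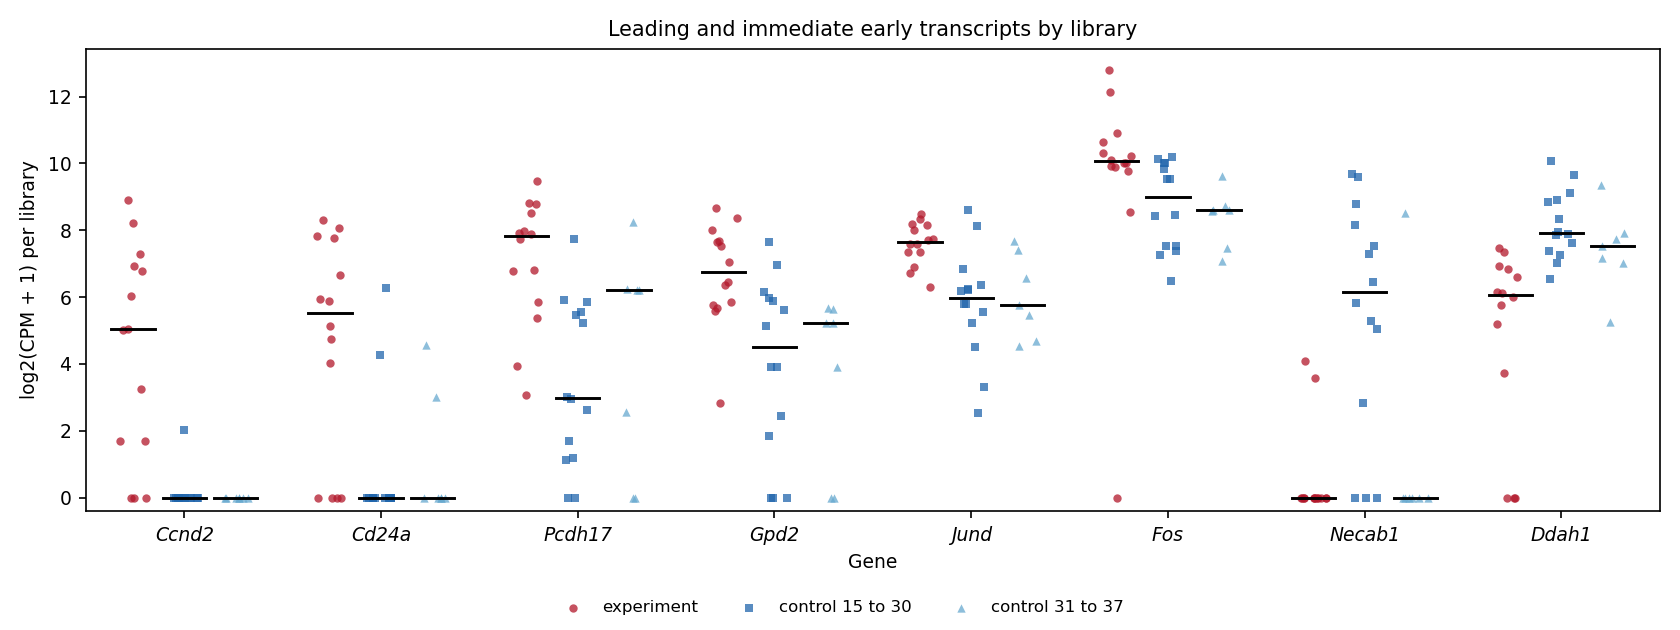
Levels of 8 leading and immediate early genes on a log2(CPM + 1) scale, with 1 point per library; black bars are medians. Ccnd2 and Cd24a are at 0 in most controls, Pcdh17, Gpd2 and Jund are shifted upward with overlap, Ddah1 is lower in the experiment points than in both control sets, and Necab1 is at 0 in most experiment points and most of controls 31 to 37.

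At the other end, Necab1, a neuronal calcium-binding protein, had counts in 2 of 14 experiment and 12 of 21 control libraries, with 0 to 16 CPM against 0 to 826 CPM. Its ratio was 0.0204, or 0.0122 without experiment 21 and 0.0115 without experiment 27. Against controls 31 to 37, whose Necab1 median was 0, the ratio was 0.0518. Ddah1, which breaks down methylarginine inhibitors of nitric oxide synthase, was spread over all controls. It ranged from 0 to 176 CPM around 65.6 CPM against 37.2 to 1067 CPM around 232 CPM, with 0 of 14 experiment libraries above the control median and 5 under every control. The ratio was 0.258 [0.240, 0.279] here and 0.342 in the other blocks. Fxyd7, a regulator of the sodium pump, had a pair share of 13.3% and a ratio of 0.378, or 0.190 without experiment 21.

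Cbln1, a synapse organiser, had a ratio of 0.0227, or 0.00909 without experiment 21, and Fstl5, a secreted follistatin-like protein, 0.0233. Without experiment 34, 2 experiment counts of Fstl5 were left, for a ratio of 0.00273 with a counting interval of 0.0003 to 0.0099. Lgals3bp (0.0138), Khnyn (0.0123), Ulk3 (0.0168), Xrcc4 (0.0244), Ganc (0.0336), Slc16a6 (0.0480), Polk (0.0642) and Acp6 (0.0688) had counts in 2 or 3 experiment libraries each. Leaving out 1 experiment library gave 0.0211 for Polk (library 34) and 0.0232 for Acp6 (21). For 5 others it left 1 to 3 experiment counts, and the ratios then have wide counting intervals. They were 0.00278 (0.0001 to 0.0156) for Lgals3bp without library 35, 0.0111 (0.0023 to 0.0327) for Ulk3 without 25 and 0.00858 (0.001 to 0.0313) for Xrcc4 without 34. For Ganc without 33 the ratio was 0.00865 (0.001 to 0.0316), and for Slc16a6 without 23 it was 0.0105 (0.0013 to 0.0382). These genes were also sparse in the controls, with counts in 11 to 13 of 21 libraries and medians of 1.39 to 9.77 CPM. Those with counts in 2 or 3 experiment libraries passed the expression filter through the control group alone.

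The same direction was found in the pooled values of the other 3 blocks for 416 of the 678 genes called higher and 812 of the 1301 called lower. By pooled and mean library CPM both, it was found for 381 and 736. In those blocks taken singly it was found for 293, 409 and 398 of the 678. For the 1301 the counts were 753, 832 and 783. Among the 36 genes named by size of ratio or by pair share, the pooled direction was the same for 11 of 18 higher and 13 of 18 lower. Taken singly, the blocks gave 5, 12 and 13 of 18 higher and 9, 13 and 11 of 18 lower. No share over all expressed genes is given beside these counts, so they do not measure replication. Those blocks share no library with this one, and the difference between blocks was not tested.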

How the data were processed

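Counts were deposited by the authors as 1 table of whole reads per gene symbol, with 45808 gene rows and 92 ERCC spike-in rows. Per the labels' protocols, cDNA came from Smart-seq2 and was built into libraries using a HyperPlus kit. The submitters' processing notes list STAR 2.5.3a, featureCounts 1.5.3 and mm10 but give them no role or order. For annotation, strand setting and reads shared by 2 genes, nothing was given in the sources used here. Reads carry no molecular identifiers.

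CPM was computed per library from gene rows, without ERCC rows. A gene was expressed with at least 10 CPM pooled over the 35 libraries and detection in 50% or more of the libraries in either group. A group sum under 3 counts was raised to 3 in ratios, except where a counting interval is given for 1 to 3 counts. Each group was 1 sample, so no p-value was computed. Genes were named by rule: the main dopaminergic genes, the 12 called genes each way ranked by the weakest of their 3 ratios, 6 each way by pair share, and up to 4 members per list. Some of these genes are not reported here. Other members named were chosen after their values were seen. Members and lists (40 gene and 11 marker lists) were chosen with earlier results of these data known. Positions come from GENCODE and promoters from RefSeq.

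Alternatives used edgeR 4.0.16 (TMM) and DESeq2 1.42.0 size factors in R 4.3.3 for scaling only, and Python 3.11.15 with pandas 2.3.3 and scipy 1.17.1 for the rest.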

Additional observations from a re-analysis of the deposited data

How the results depend on the processing

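No paired analysis was possible because each group counted as 1 sample, the result comes from no test, and the numbers shared by experiment and control titles pair nothing named in the labels. Counts of called genes depended on the measure. The number of genes called higher was 1181 by mean library CPM alone, 1730 by mean log2(CPM + 1), 1325 with TMM, 1493 with DESeq2 size factors, 1963 with no filter beyond 1 count, 1221 against controls 31 to 37 and 277 at 2-fold. The number of genes called lower was 2060 by mean log2(CPM + 1), 2381 without the highest library of each group, 3270 with no filter and 582 at 2-fold. Leaving out 1 library gave 626 to 759 higher and 1226 to 1409 lower.

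Where libraries were left out as a set, the expression filter was applied again, so list medians can differ from those of the 8128 genes. Median log2 ratios for complex I were 0.0585 by mean library CPM, 0.0105 by mean log2(CPM + 1), 0.0831 without the highest libraries, 0.14 with TMM, 0.48 against controls 31 to 37, 0.40 at 400000 counts or more, -0.0673 at low ERCC share, -0.0128 without the 9 glial-rich libraries and 0.0686 without experiment 21 and 27, the last chosen after seeing the data. For ribosomal proteins the same settings gave 0.13, 0.20, 0.29, 0.30, 0.95, 0.91, 0.12, -0.0392 and 0.11, with 0.32 for DESeq2 size factors and 0.60 against controls 15 to 30. Against controls 31 to 37 mitochondrial-encoded genes had 1.09 and immediate early genes 2.30. Without the glial-rich libraries immediate early genes had -0.20. Astrocyte markers had 0.60 at low ERCC share, 0.72 without the glial libraries and 0.94 without experiment 21 and 27. Leaving out 1 library gave -0.0003 to 0.32 for complex I, 0.16 to 0.80 for ribosomal proteins and 0.79 to 2.73 for astrocyte markers. The cause of these shifts was not tested.

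Directions turned for few named results. Against controls 31 to 37 the log2 ratio was 6.81 for Calb2, 1.89 for Cck and for the dorsal-tier list, 0.46 for Creld2, 1.12 for Homer1, 0.82 for Sdf2l1, 0.59 for Sec61b, 2.31 for Tacr3 and -0.22 for Sox6. By mean log2(CPM + 1) Calb2 had 2.19, and with no filter the oligodendrocyte precursor markers had 0.0566. At low ERCC share the values were -0.82 for microglia markers, -0.21 for Acsbg1, -0.61 for Anxa1, -0.24 for C1qc, -0.16 for Cebpg, -0.58 for Ctss, -0.85 for Phgdh and -1.83 for Kcnn2. Without the glial-rich libraries they were -0.20 for oligodendrocyte markers, -0.72 for Egr1, -0.69 for Ier2 and -0.26 for Cd63, and without experiment 21 and 27 Ier2 had -0.0787. Of 138 called genes listed for description, 120 had 1 direction in 12 alternatives other than leaving 1 library out. Depth limits genes near 10 CPM, where a library of 116567 counts holds few reads.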
